A study of Sus scrofa with 14 samples.

Results

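Mural cells are the cells wrapped around blood vessels: pericytes on capillaries and smooth muscle cells on arterioles and venules. They contract or relax to set the width of the vessel, lay down part of the basement membrane they share with the endothelium, and are held on the vessel by PDGF-B from endothelial cells acting on PDGFRB and by Notch ligands acting on NOTCH3. In the mammary gland, a second contractile cell, the myoepithelial cell, surrounds the alveoli, so that smooth muscle genes alone do not separate the 2 kinds of cell.

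Nuclei were counted as mural when they had at least 300 detected genes, UMIs in at least 3 of RGS5, GUCY1A2, KCNAB1, GJC1, FHL5, CACNB2, ANO3 and STAC, and 0 UMIs summed over EPCAM, TP63, OXTR, PTPRB, MMRN1, CD163, CD3E and ADIPOQ, which mark epithelial, myoepithelial, endothelial, lymphatic, macrophage, T and fat cells. STAC had no symbol in the deposited gene tables, so 7 of the 8 markers could be used. The rule found 680 mural nuclei among 127926 nuclei of 10 mammary glands, 0.532% of all.

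The glands came from 10 multiparous pig sows (Sus scrofa), 2 at each of day 90 of gestation (G90), day 0 (L0) and day 20 (L20) of lactation, and 2 and 7 days into natural involution (PI2 and PI7). The labels name no treatment or genetic change in any group. Each gland gave 1 single-nucleus RNA library, and the sow was the replicate. In the stage comparisons, p-values rest in effect on a spread between sows that is shared across genes. There, a gene's own spread between sows counted little. Total UMIs per gland ranged from 18962138 to 53165191. No mural barcode occurred in more than 1 library, although 4081 barcodes did.

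The marker genes were used to choose the nuclei, and their values are a description. RGS5, a regulator of G protein signalling that marks pericytes, was seen in 338 of the 680 nuclei, and GJC1, the gap junction protein connexin 45, in 374. GUCY1A2, a subunit of the nitric oxide receptor, was seen in 388, and CACNB2, a subunit of voltage-gated calcium channels, in 477. KCNAB1, a potassium channel subunit, was seen in 423, ANO3 in 402 and FHL5 in 237. In 49122 luminal epithelial nuclei, which should lack these genes, RGS5 was seen in 0.851% against 49.7% of the mural nuclei. The luminal shares of the other markers were 0.356% for FHL5, 0.735% for GJC1, 2.42% for GUCY1A2, 3.64% for ANO3, 4.90% for CACNB2 and 7.24% for KCNAB1. Median depth was 2870 UMIs in the luminal and 1640.5 UMIs in the mural nuclei, so the low luminal shares did not go with lower depth.

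Most members passed with few markers. Of the 680 nuclei, 334 had 3 markers, 174 had 4, 110 had 5, 43 had 6 and 19 had 7. The 334 nuclei just inside the limit held 1201 CPM (UMIs of a gene per 1000000 UMIs of the summed nuclei) of MYH11, the heavy chain of smooth muscle myosin. The 346 nuclei with 4 or more markers held 1445 CPM of MYH11, and the 1498 nuclei with exactly 2 markers, just outside, held 350 CPM. PDGFRB stood at 359 CPM with 3 markers, at 657 CPM with 4 or more and at 109 CPM with 2. Another 479 nuclei with at least 3 markers were left out because they held a UMI of an excluded gene.

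Genes that the rule did not use included contractile and pericyte genes, some of which other classes also held. MYH11 was detected in 49.4% of mural nuclei against 8.14% of luminal nuclei, and ACTA2, smooth muscle actin, in 47.9% against 5.08%. PDGFRB was detected in 44.9% of mural nuclei against 2.94% of luminal nuclei, and NOTCH3 in 41.0% against 4.92%. In myoepithelial nuclei MYH11 was detected in 70.1%, ACTA2 in 45.1% and NOTCH3 in 7.03%. In fibroblast nuclei PDGFRB was detected in 33.8% and NOTCH3 in 4.25%. When every nucleus was thinned to 500 UMIs, MYH11 was still detected in 33.5% of mural and 2.38% of luminal nuclei. A contractile gene (MYH11 or ACTA2) and a pericyte gene (PDGFRB or NOTCH3) were found together in 297 nuclei, 43.7% of the 680. A contractile gene alone was found in 127, a pericyte gene alone in 126 and neither in 130. These groups follow detected genes and are not counts of pericytes and smooth muscle cells. Nuclei with neither were also the shallowest, with a median of 1196 UMIs against 1832 UMIs in those with both.

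**Figure D1:**
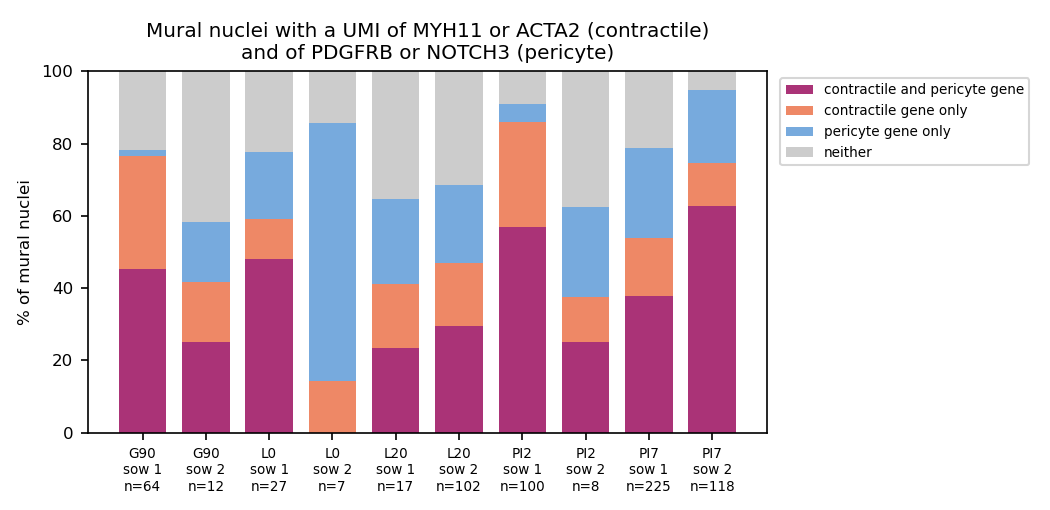
Stacked bars give, for each gland, the percentage of its mural nuclei with a UMI of MYH11 or ACTA2 and of PDGFRB or NOTCH3, n being the number of mural nuclei. Nuclei with both kinds of gene made up 62.7% in PI7 sow 2 and 57.0% in PI2 sow 1, and 0 of the 7 nuclei of L0 sow 2.

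The makeup differed between sows of the same stage. At G90, 20 of the 64 nuclei of sow 1 held only a contractile gene and 1 held only a pericyte gene, whereas sow 2 had 2 of 12 of each kind. At PI7, both kinds of gene were seen in 37.8% of the nuclei of sow 1 and in 62.7% of those of sow 2.

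Genes of other cell types were present. A UMI of the fibroblast genes PDGFRA, LUM or DCN was seen in 107 mural nuclei (15.7%), 34 of them among the 102 nuclei of L20 sow 2. At least 3 markers of the fibroblast rule were held by 119 of the 680 mural nuclei, 41 of them in PI7 sow 1 and 37 in L20 sow 2. The genes that the fibroblast rule excludes, RGS5 and GJC1 among them, were not applied in this count. Summed over the 8 glands with at least 10 mural nuclei, the fibroblast marker list stood at 862 to 5410 CPM in mural nuclei and at 6738 to 17681 CPM in fibroblast nuclei. The highest value, 5410 CPM, was that of L20 sow 2. The endothelial list stood at 418 to 694 CPM against 3310 to 6654 CPM in endothelial nuclei, and the myoepithelial list at 194 to 588 CPM against 1766 to 3534 CPM in myoepithelial nuclei. The immune list had a median of 232 CPM in mural nuclei and 430 CPM in all nuclei. Its highest mural value, 607 CPM, was that of PI7 sow 1, against 964 CPM in all nuclei of that gland. PTPRC was seen in 94 mural nuclei (13.8%), 45 of them among the 225 of PI7 sow 1. Its share was 11.3% in fibroblast, 15.1% in myoepithelial and 13.0% in endothelial nuclei. KRT5 was seen in 26 mural nuclei, 22 of them in PI7 sow 1, and in 59.5% of myoepithelial nuclei. The adipocyte list had a median of 299 CPM in mural nuclei, above the 76.6 CPM of all nuclei and the 195 CPM of fibroblasts, and the fibroblast list a median of 1622 CPM against 950.2 CPM in all nuclei. Nuclei holding RNA of a second cell were not removed by a doublet caller, and their part in the results was not tested.

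The share of mural nuclei was highest at PI7. It was 1.35% in sow 1 (95% interval 1.18 to 1.53%, exact binomial) and 1.17% in sow 2 (0.970 to 1.40%), above all 8 other glands. At the other stages the 2 sows lay far apart. At G90 the shares were 0.558% and 0.0642%, at L0 0.235% and 0.0744%, at L20 0.132% and 0.666%, and at PI2 0.803% and 0.0851%. Averaged by stage, the share was 0.311 ± 0.349% for G90, 0.155 ± 0.114% for L0, 0.399 ± 0.378% for L20, 0.444 ± 0.508% for PI2 and 1.26 ± 0.125% for PI7 (SD, n = 2 each). No single stage was tested for its share.

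Lactation was compared with the other stages over all 10 glands. The 4 lactation glands averaged 0.277 ± 0.268% (SD, n = 4) and the 6 others 0.672 ± 0.539% (SD, n = 6). The groups overlapped, and lactation minus the others was -0.395 percentage points (p = 0.233, exact permutation test, two-sided). With 210 ways to divide the glands, the smallest possible p was 0.00476. With each nucleus thinned to 500 UMIs before the rule was applied, the PI7 glands still stood highest, at 0.647% and 0.705% against at most 0.442% elsewhere. With at least 2 markers in place of 3 they did not both stand highest, PI7 sow 2 with 2.09% lying below L20 sow 2 with 2.98% and G90 sow 1 with 2.21%.

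Relative to blood endothelial nuclei, chosen by their own marker rule, mural nuclei varied less. There were 11.6 to 28.4 mural nuclei per 100 endothelial nuclei over the 10 glands. The PI7 glands had the 2 highest ratios, 23.2 and 28.4, followed by 21.3 in PI2 sow 1 and 20.5 in L0 sow 1. The lowest ratio, 11.6 in PI2 sow 2, rested on 8 mural and 69 endothelial nuclei. A share counts nuclei recovered by the library, and loss of other cells from the gland cannot be told apart from gain of mural cells.

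**Figure D2:**
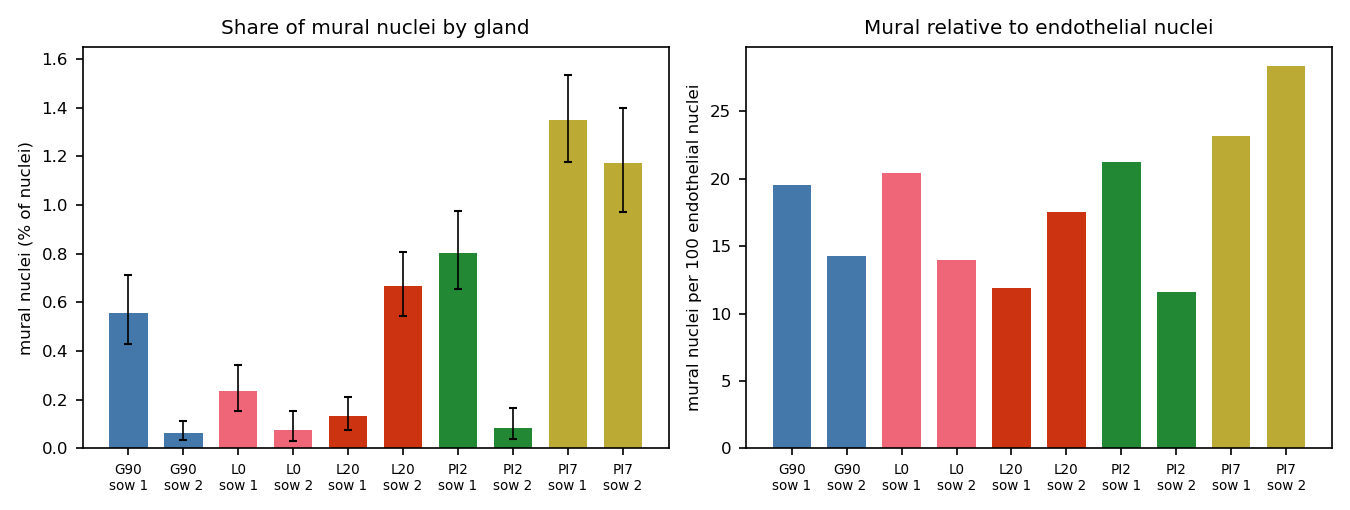
Left, mural nuclei as a percentage of all nuclei with at least 300 genes in each gland, with exact binomial 95% intervals that cover counting error only. Right, mural nuclei per 100 endothelial nuclei. The PI7 glands stand highest on the left at 1.35% and 1.17%, and on the right at 23.2 and 28.4.

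To place mural nuclei beside the classes they most resemble, UMIs were summed per gland over 6240 fibroblast, 1564 myoepithelial and 3244 endothelial nuclei. Each class was chosen by its own marker rule, and the rules differed in what they excluded. RGS5 and GJC1 were seen in 0 nuclei of these classes, and PDGFRA in 0 myoepithelial and 0 endothelial nuclei. The mural rule excluded no fibroblast gene, and PDGFRA was seen in 29 mural nuclei. The class comparisons were repeated with mural nuclei without PDGFRA, LUM or DCN, and the counts are given at the end. How far the other exclusions set the differences below was not tested. Mural sums of the 8 glands with at least 10 mural nuclei were set against sums of 10 glands in one edgeR fit that kept the gland as a block. L0 sow 2, with 7 mural nuclei, and PI2 sow 2, with 8, gave no mural sum. The genes of all marker rules were left out, so RGS5 and its companions, and fibroblast genes such as DCN and COL1A1, carry no test. Because classes were drawn from the RNA of the same nuclei, the counts below describe how the classes differ and how evenly over sows, and are not an independent test that a class exists. A gene was called at an edgeR adjusted p under 0.05 and an absolute log2 fold change over 1. Of 8250 genes tested, 481 (5.83%) were higher and 515 (6.24%) lower in mural than in fibroblast nuclei, 12.1% together. Against myoepithelial nuclei 802 (9.72%) were higher and 595 (7.21%) lower, 16.9% together. Against endothelial nuclei 624 (7.56%) were higher and 717 (8.69%) lower, 16.3% together. In all 3 comparisons 172 genes were higher and 26 lower.

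**Figure D3:**
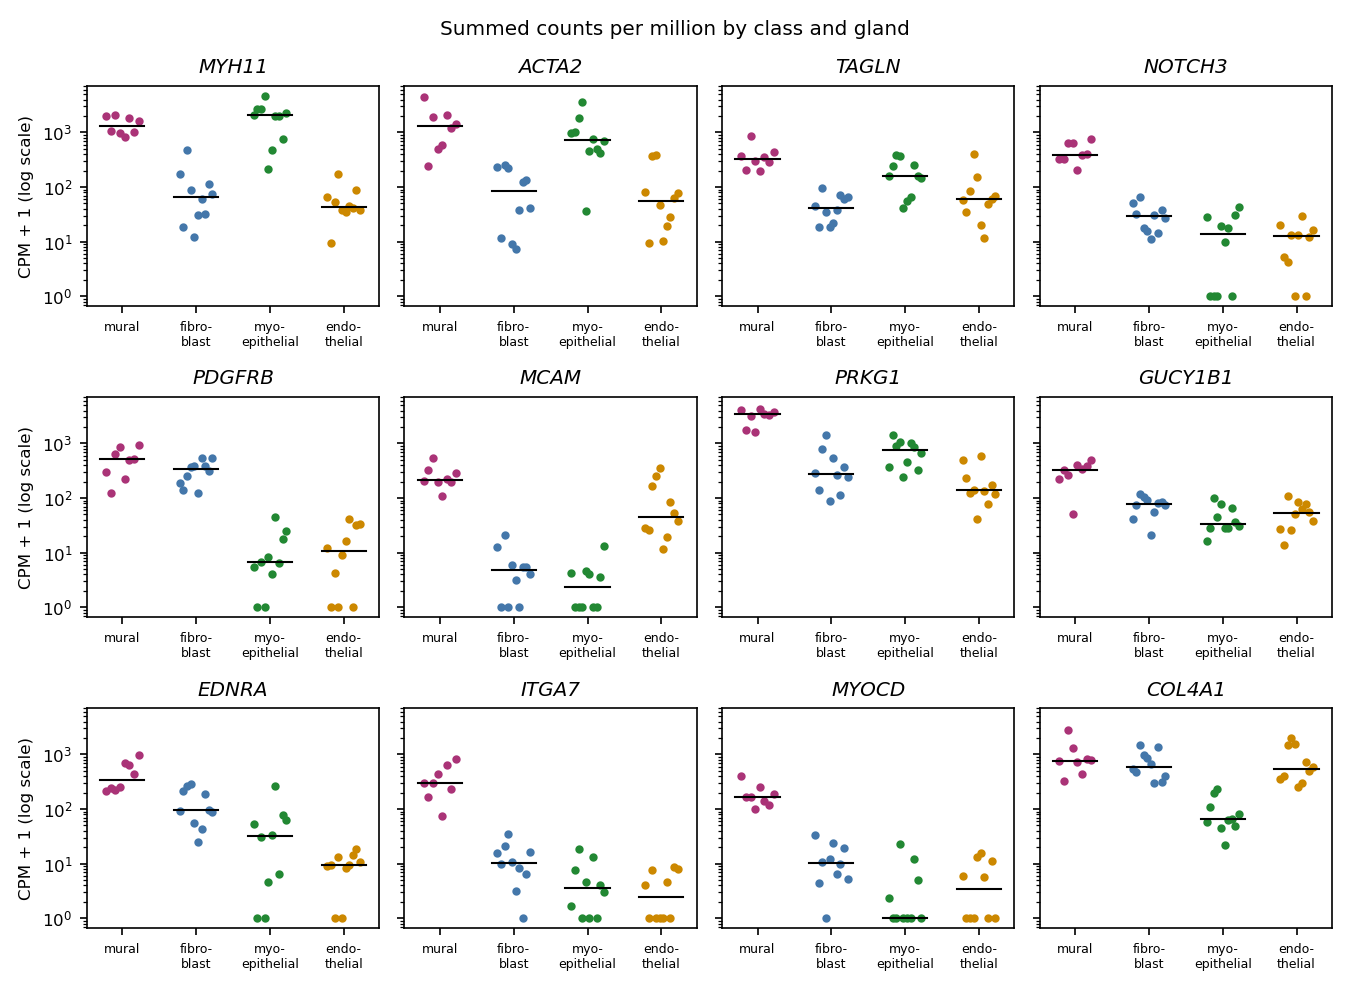
Each point is the summed level of a gene in the nuclei of 1 class in 1 gland, as CPM + 1 on a log axis, with bars at the medians (mural 8 glands, other classes 10). NOTCH3, ITGA7 and MYOCD are higher in every mural sum than in any sum of the other classes. PDGFRB overlaps with fibroblasts, MYH11 with myoepithelial nuclei, and ACTA2 with all 3 classes.

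The contractile apparatus set mural nuclei apart from fibroblasts and endothelium more than from myoepithelial nuclei. All 18 tested members of its list were higher than in fibroblasts, where 5.83% of all genes were. Their median log2 fold change was 1.93 against -0.08 over all genes. Than in endothelium 15 were higher, where 7.56% of all genes were, with a median of 2.16 against -0.10. Against myoepithelial nuclei 6 of 18 were higher and 1 lower, where 9.72% and 7.21% of all genes were. The other 11 were not called, and the median was 0.66 against -0.11. ACTA2 (chromosome 14, 100868145 to 100886732, RefSeq on Sscrofa11.1) ranged from 245 to 4423 CPM in mural sums, with a median of 1320 CPM, and its fibroblast median was 82.2 CPM. The lowest mural sum, in G90 sow 2 with 12 nuclei, lay below the highest fibroblast sum of 253 CPM and the highest endothelial sum of 387 CPM, so the groups overlapped. It was higher than in fibroblasts by 4.49 ± 0.47 (log2, SE, adjusted p = 2.04e-09) and than in endothelium by 4.59 ± 0.49 (adjusted p = 1.84e-09). The difference from myoepithelial nuclei, 0.97 ± 0.43, was not called (adjusted p = 0.0959).

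MYH11 (chromosome 3, 7002667 to 7143093) ranged from 840 to 2067 CPM in mural sums, with a median of 1331 CPM. Fibroblast sums reached 483 CPM and endothelial sums 175 CPM, so neither class overlapped with mural nuclei, while myoepithelial sums ran from 209 to 4637 CPM. Its log2 difference was 4.14 ± 0.38 from fibroblasts, 4.73 ± 0.41 from endothelium and -0.22 ± 0.36 from myoepithelial nuclei (adjusted p = 0.734). MYLK, the kinase that switches smooth muscle myosin on, was the 1 contractile gene lower than in myoepithelial nuclei, by -1.31 ± 0.28 (adjusted p = 0.000316). The 6 members higher than in myoepithelial nuclei were LMOD1 (2.16), ACTG2 (1.55), TAGLN (1.40), VCL (1.40), TPM4 (1.38) and SMTN (1.06). LMOD1 nucleates actin filaments in muscle, and TAGLN binds actin.

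**Figure D4:**
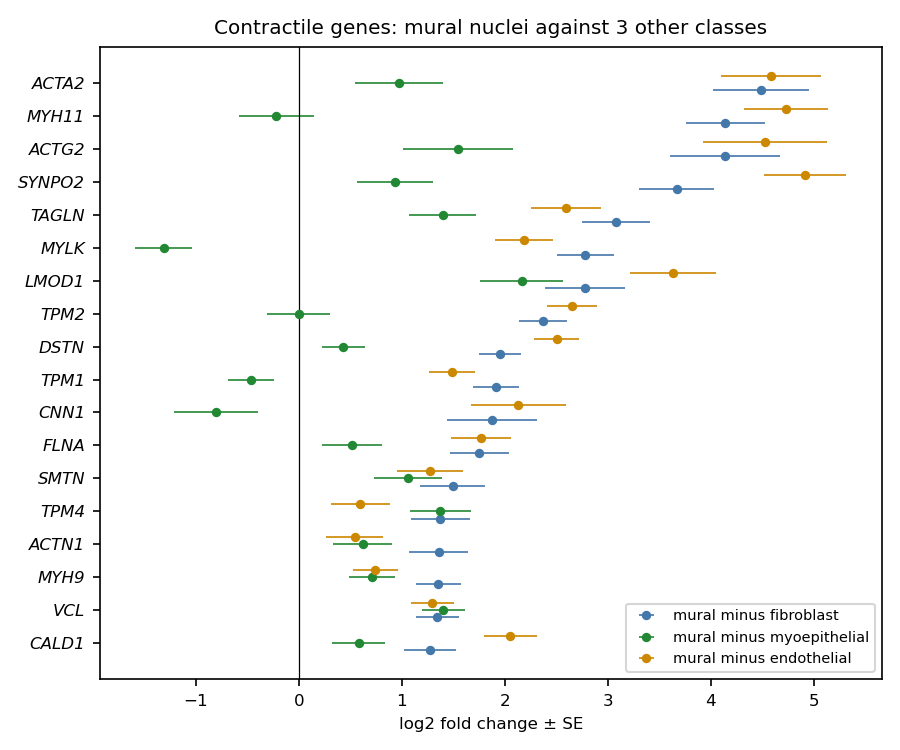
Log2 fold change with its SE for the 18 tested contractile genes, mural minus each of the 3 other classes, from the edgeR fit with the gland as a block. Differences from fibroblasts all lie above 0, from 1.27 for CALD1 to 4.49 for ACTA2, whereas differences from myoepithelial nuclei lie on both sides of 0.

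Smooth muscle genes are known targets of serum response factor with its partner MYOCD, which bind the CArG box, and Notch receptors act through RBPJ on genes such as HEY2 and HEYL. Promoters are shown for VCL and TPM4, both higher than in fibroblast and myoepithelial nuclei, and for HEY2 and HEYL, both higher in mural nuclei in all 3 comparisons. In the 250 bases before the RefSeq gene start on Sscrofa11.1, a CArG box (searched on both strands) was found in 4 of 22 contractile genes (18.2%) and in 262 of 20638 protein-coding genes (1.27%). Besides VCL and TPM4 these were MYL9 and TAGLN, whose sequences are not shown. TAGLN, also higher than in fibroblast and myoepithelial nuclei, had boxes 191 and 64 bases before the gene start. The letters GTGGGAA, the RBPJ motif, were found on either strand in 3 of 16 Notch pathway genes (18.8%) and in 1094 of the 20638 (5.3%). Motif matches are descriptions of these windows and were not tested as sites. ACTA2 and MYH11 had no match in their windows. The sequences below run 5′ to 3′ on the gene's strand, with the motif in capitals.
VCL, chr14:76699893-76700142, plus strand: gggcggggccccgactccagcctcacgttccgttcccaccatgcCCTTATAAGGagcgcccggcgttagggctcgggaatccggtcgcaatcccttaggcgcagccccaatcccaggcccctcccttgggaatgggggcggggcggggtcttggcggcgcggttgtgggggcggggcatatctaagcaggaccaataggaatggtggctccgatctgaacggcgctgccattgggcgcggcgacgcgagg
TPM4, chr2:61476782-61477031, minus strand: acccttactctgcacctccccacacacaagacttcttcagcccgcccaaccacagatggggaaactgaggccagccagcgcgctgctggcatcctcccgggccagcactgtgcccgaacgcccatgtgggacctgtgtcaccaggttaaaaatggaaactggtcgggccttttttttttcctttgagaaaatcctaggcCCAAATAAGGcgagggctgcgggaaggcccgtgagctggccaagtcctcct
HEY2, chr1:37231322-37231571, minus strand: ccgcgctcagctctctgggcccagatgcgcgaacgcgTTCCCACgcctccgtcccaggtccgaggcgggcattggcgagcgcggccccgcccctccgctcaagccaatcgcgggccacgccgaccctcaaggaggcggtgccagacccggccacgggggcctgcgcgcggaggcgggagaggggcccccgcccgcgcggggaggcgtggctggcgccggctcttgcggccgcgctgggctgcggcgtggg
HEYL, chr6:95459598-95459847, minus strand: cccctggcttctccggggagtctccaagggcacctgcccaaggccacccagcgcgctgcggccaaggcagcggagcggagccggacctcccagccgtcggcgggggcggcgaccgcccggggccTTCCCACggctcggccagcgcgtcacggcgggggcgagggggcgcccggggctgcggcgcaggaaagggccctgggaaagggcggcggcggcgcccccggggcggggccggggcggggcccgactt

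The CArG boxes of VCL and TPM4 began 206 and 51 bases before the gene start. The RBPJ motif began 213 bases before the start of HEY2 and 126 bases before that of HEYL, on the opposite strand in both.

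The transcription factor list separated mural from myoepithelial nuclei more than from the other classes. MYOCD ranged from 99.1 to 405 CPM in mural sums, above every sum of the other classes, of which the highest was 32.2 CPM in fibroblasts. Its log2 difference was 3.90 ± 0.37 from fibroblasts, 6.51 ± 0.51 from myoepithelial nuclei and 4.97 ± 0.41 from endothelium (adjusted p = 2.27e-10, 8.72e-13 and 5.17e-12). Against myoepithelial nuclei 13 of 19 tested factors were higher and 0 lower, where 9.72% and 7.21% of all genes were, with a median log2 fold change of 2.74 against -0.11. EBF2 and TBX18, both known in pericytes, were among them at 5.89 ± 0.36 and 5.33 ± 0.50. Neither was called against fibroblasts, at 0.49 ± 0.26 and 0.07 ± 0.31, where 5 factors were higher and 3 lower (all genes 5.83% and 6.24%). Against endothelium 5 were higher and 4 lower (all genes 7.56% and 8.69%). MEF2C was 2.78 ± 0.25 higher than in fibroblasts and was not called against endothelium, at -0.10 ± 0.24.

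Pericyte genes were spread over 2 patterns. NOTCH3 (chromosome 2, 62364507 to 62402348), the Notch receptor of mural cells, ranged from 205 to 747 CPM with a median of 392 CPM, and no sum of another class exceeded 65.8 CPM. It was higher by 3.69 ± 0.31, 4.34 ± 0.34 and 4.82 ± 0.34 than in fibroblast, myoepithelial and endothelial nuclei. CSPG4, the NG2 proteoglycan of pericytes, and MCAM, an adhesion molecule, were also higher in all 3 comparisons. MCAM showed the largest log2 difference of the named genes from fibroblasts, 5.63 ± 0.43 (adjusted p = 1.45e-12), and the smaller 2.16 ± 0.37 from endothelium. PDGFRB separated mural from myoepithelial nuclei, by 5.30 ± 0.32, and from endothelium, by 4.63 ± 0.29. It did not pass the test against fibroblasts, at 0.52 ± 0.25 (adjusted p = 0.162), with 122 to 941 CPM in mural and 125 to 544 CPM in fibroblast sums. ANPEP, also counted among pericyte genes, was lower than in fibroblasts by -2.65 ± 0.38. KCNJ8, a potassium channel of pericytes, was left out by the filter on low counts. It stood at 0 to 304 CPM in mural sums and at no more than 18.5 CPM in any other class.

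Of the Notch list, HEYL and HEY2, both targets of Notch, were higher in all 3 comparisons. HEYL ranged from 31.5 to 198 CPM in mural sums and reached 3.60 CPM in myoepithelial sums (6.96 ± 0.59, adjusted p = 1.08e-11). HEY2 was higher than in fibroblasts by 3.78 ± 0.49 and than in endothelium by 3.06 ± 0.49. The ligands DLL1, DLL4 and JAG2 were lower than in endothelium, DLL4 by -3.98 ± 0.58. Among PDGF genes, PDGFA was higher than in fibroblasts by 3.44 ± 0.40 and than in endothelium by 2.59 ± 0.39, while PDGFB was lower than in endothelium by -1.64 ± 0.34. ANGPT1, a ligand of the endothelial receptor TEK, was 4.28 ± 0.53 higher than in endothelium, with 49.6 to 418 CPM in mural sums and at most 29.8 CPM in endothelial ones. ANGPT2 was 3.59 ± 0.35 higher than in fibroblasts.

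Nitric oxide from the endothelium relaxes mural cells through cyclic GMP, and most tested genes of this pathway were higher than in each other class. Against fibroblasts 8 of 12 tested members were higher, where 5.83% of all genes were, and 0 lower, with a median log2 fold change of 1.54 against -0.08. Against myoepithelial nuclei 8 were higher and 0 lower (median 2.07, 9.72% of all genes higher), and against endothelium 7 were higher and 3 lower (median 1.44, 7.56% of all genes higher and 8.69% lower). PRKG1, the kinase that cyclic GMP activates, ranged from 1586 to 4225 CPM in mural sums, above every sum of the other classes. It was higher by 3.21 ± 0.38, 2.10 ± 0.37 and 3.95 ± 0.38 in the 3 comparisons, and its substrate IRAG1 by 4.12 ± 0.38, 2.30 ± 0.37 and 4.74 ± 0.40. GUCY1B1, the partner of the chosen marker GUCY1A2, was higher by 2.34 ± 0.30, 3.18 ± 0.32 and 2.65 ± 0.30. PDE3A, a phosphodiesterase of vascular muscle, had the largest named difference from myoepithelial nuclei, 7.00 ± 0.48 (adjusted p = 2.54e-14), with 1102 to 3085 CPM against at most 56.0 CPM. NOS3, the endothelial nitric oxide synthase, was lower than in endothelium by -3.20 ± 0.35.

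Channels and receptors of vascular tone followed. TRPC6, a cation channel, ranged from 388 to 818 CPM in mural sums and exceeded all sums of the other classes, by 5.21 ± 0.42, 2.70 ± 0.41 and 3.41 ± 0.39. Of 18 tested calcium genes, 6 were higher and 0 lower than in fibroblasts, 6 and 0 than in myoepithelial nuclei, and 8 and 2 than in endothelium. Over all genes 5.83%, 9.72% and 7.56% were higher and 6.24%, 7.21% and 8.69% lower. RYR2, a calcium release channel, was higher by 1.19 ± 0.33, 3.85 ± 0.38 and 1.73 ± 0.35. The chloride channel ANO1 was higher by 2.58 ± 0.29, 1.15 ± 0.29 and 2.11 ± 0.29. KCNMA1, a calcium-activated potassium channel, was lower than in myoepithelial nuclei by -2.22 ± 0.22, the groups not overlapping at 163 to 406 CPM and 875 to 1947 CPM.

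The endothelin receptors EDNRA and EDNRB were both higher in all 3 comparisons. EDNRA ranged from 213 to 955 CPM in mural sums and up to 17.2 CPM in endothelial sums (5.65 ± 0.58, adjusted p = 8.94e-10), and EDN1, the endothelin itself, was lower than in endothelium by -5.30 ± 0.51. EDNRB was 4.26 ± 0.38 higher than in fibroblasts and 1.02 ± 0.34 higher than in endothelium. ADRA1A, an adrenergic receptor, was higher by 2.51 ± 0.38, 2.08 ± 0.41 and 2.73 ± 0.41, and RAMP1, a partner of the CGRP receptor, by 2.20 ± 0.38, 1.07 ± 0.36 and 2.43 ± 0.39. CALCRL was lower than in endothelium by -3.93 ± 0.45. Of 34 vasoactive receptors in the list, 13 passed the filter on low counts. Of these 4 were higher and 3 lower than in fibroblasts, 9 and 1 than in myoepithelial nuclei, and 6 and 5 than in endothelium. Over all genes the shares were 5.83% higher and 6.24% lower, 9.72% and 7.21%, and 7.56% and 8.69%.

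Interstitial matrix genes ran the opposite way against fibroblasts and against the other classes. Of 22 tested interstitial matrix genes, 13 were lower and 2 higher than in fibroblasts (median log2 fold change -1.46), while 14 were higher and 1 lower than in myoepithelial nuclei (median 1.88), and 12 higher and 1 lower than in endothelium (median 1.26). Over all genes 6.24% were lower than in fibroblasts, 9.72% higher than in myoepithelial nuclei and 7.56% higher than in endothelium. COL6A3 did both, at 171 to 661 CPM in mural sums, 1005 to 2423 CPM in fibroblast sums and at most 89.4 CPM in endothelial sums. The mural rule excluded no fibroblast gene, and the part of fibroblast RNA in these counts was not tested. SPARCL1 and TNC were the 2 higher than in fibroblasts, by 3.43 ± 0.45 and 1.93 ± 0.54. Of 16 tested basement membrane genes, 8 were higher and 2 lower than in fibroblasts, 8 and 2 than in myoepithelial nuclei, and 5 and 1 than in endothelium, beside 5.83% and 6.24%, 9.72% and 7.21%, and 7.56% and 8.69% of all genes. COL4A1, a main chain of collagen IV, was not called against fibroblasts, at 0.50 ± 0.26, or endothelium, at 0.48 ± 0.26, and was 3.62 ± 0.29 higher than in myoepithelial nuclei. NID1 was lower than in fibroblasts by -2.31 ± 0.28.

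Of the proteases, ADAMTS12 was higher in all 3 comparisons (1.45 ± 0.36, 4.83 ± 0.46 and 2.48 ± 0.37), and MMP2 was lower than in fibroblasts by -3.07 ± 0.31. SFRP2, a secreted inhibitor of Wnt signalling, had the largest named negative difference from fibroblasts, -4.50 ± 0.44, with 0 to 198 CPM in mural sums against 436 to 3286 CPM. ACKR1, a chemokine receptor of venules, had the largest from endothelium, -7.54 ± 0.51, and PERP, a desmosome protein, the largest from myoepithelial nuclei, -4.91 ± 0.40.

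Among adhesion genes, ITGA7, the laminin-binding integrin of muscle, ranged from 72.2 to 826 CPM in mural sums, and the highest sum of any other class was 34.2 CPM. It was higher by 5.03 ± 0.34, 6.55 ± 0.42 and 6.21 ± 0.38, and among the 172 genes higher in all 3 comparisons it had the largest smallest difference. LHFPL3 (4.69, 5.54 and 4.72), CTNNA3 (4.43, 4.37 and 4.43), CDH6 (4.29, 5.29 and 4.38) and MYOM1 (4.23, 4.42 and 4.36) came next. CTNNA3 and CDH6 belong to cadherin junctions, and MYOM1 to the M band of striated muscle. The connexins GJA4 and GJA5 were higher than in fibroblasts by 4.47 ± 0.45 and 4.91 ± 0.50, whereas GJA1 was lower in all 3 comparisons. Of 20 tested integrin and junction genes 9 were higher and 3 lower than in fibroblasts (all genes 5.83% and 6.24%), 11 and 4 than in myoepithelial nuclei (9.72% and 7.21%), and 7 and 4 than in endothelium (7.56% and 8.69%).

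Of 14 tested hormone receptors 0 were higher and 3 lower than in fibroblasts, where 6.24% of all genes were lower. PRLR, the prolactin receptor, was not called against fibroblasts or endothelium and was lower than in myoepithelial nuclei by -1.54 ± 0.31. Of 28 cell cycle genes 7 passed the filter, too few to read their counts of calls. CD36, a fatty acid transporter, and FABP4 were higher than in fibroblasts by 2.80 ± 0.35 and 2.90 ± 0.36, and FABP4 was lower than in endothelium by -1.72 ± 0.33.

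Stages were compared within mural nuclei alone, over the same 8 glands and 7612 genes. L0 and PI2 were each left with 1 gland (27 and 100 nuclei), which was taken to vary like the glands of the other stages. Few genes were called. At L0 against G90 11 genes (0.145%) were higher and 1 (0.0131%) lower, 0.158% together. At L20 against L0 1 (0.0131%) was higher and 12 (0.158%) lower, 0.171% together. At PI2 against L20 3 (0.0394%) were higher and 3 (0.0394%) lower, 0.0788% together, and with DESeq2 size factors 5 were higher and 12 lower. At PI7 against PI2 edgeR called 0 genes (0.0%) and DESeq2 also 0, while 198 genes had an unadjusted edgeR p under 0.05 with the same fold limit. Among 7612 genes, 198 is fewer than a p limit of 0.05 would pass if no gene differed. Genes were called with these 2 stages fitted alone and with at least 4 markers per nucleus. In both fits PI2 had 1 gland and the spread came from the 2 PI7 sows alone. Lactation, as the mean of L0 and L20, against the mean of G90, PI2 and PI7 had 18 genes higher (0.236%) and 1 lower (0.0131%), 0.25% together. These counts moved when 1 gland was left out. For L0 against G90 the 12 calls became 1 and 4 without G90 sow 1 or 2, 22 and 26 without L20 sow 1 or 2, and 4 without either PI7 sow. For L20 against L0 the 13 calls became 39 and 4 without L20 sow 1 or 2. For PI2 against L20 the 6 calls became 21 and 14 without L20 sow 1 or 2 and 0 without either PI7 sow. For PI7 against PI2 3 and 4 genes were called without L20 sow 1 or 2. For lactation the 19 calls became 7 and 3 without PI7 sow 1 or 2.

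In each of the 5 comparisons 0 of 19 tested contractile genes and 0 of 9 tested pericyte genes were called, where at most 0.25% of all genes were called, so that these counts say nothing particular to the lists. The contractile list summed to 18380 and 9677 CPM in the G90 glands, 16162 CPM in L0 sow 1, 9369 and 8286 CPM in the L20 glands, 15267 CPM in PI2 sow 1 and 10722 and 14140 CPM in the PI7 glands. L0 sow 2, left out with 7 nuclei, had 9668 CPM, near the L20 glands. Its median log2 fold change was -1.59 at L20 against L0 (all genes 0.23), 0.70 at PI2 against L20 (all genes 0.03) and -0.004 in lactation against the other stages (all genes -0.19). MYH11 differed by -0.23 ± 0.63 (log2, SE) and ACTA2 by -0.92 ± 0.65 in lactation against the other stages. Neither was called, so changes at least as large as that of ACTA2 could not be told from 0. For ACTA2 the G90 sows alone spanned 245 to 4423 CPM.

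Markers of the rule are given as levels only. RGS5 stood at 443 and 204 CPM in the G90 glands, 689 CPM in L0 sow 1, 892 and 608 CPM at L20, 422 CPM in PI2 sow 1 and 694 and 1028 CPM at PI7. The PI7 value of sow 1 lay between the L20 values and that of sow 2 above both. GJC1 stood at 251 and 245 CPM at G90 and at 448 to 752 CPM in the other 6 glands, so its G90 glands were the lowest.

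Milk protein genes were 5 of the 12 genes lower at L20 than at L0. Of 5 tested milk genes, 2 were higher at L0 than at G90 and all 5 lower at L20 than at L0. Over all genes the shares were 0.145% and 0.158%. The 2 calls at L0 against G90, LALBA and CSN3, were lost with DESeq2 and without either G90 or either PI7 sow. L0 sow 2, left out with 7 nuclei, had a milk sum of 4834 CPM in mural nuclei, below the 5553 CPM of G90 sow 2. CSN2, beta-casein, had 73 UMIs in L0 sow 1 (1359 CPM), 45 and 8 UMIs at G90 (240 and 327 CPM), and 1 and 0 UMIs at L20 (49.6 and 0 CPM). It was lower at L20 than at L0 (edgeR adjusted p = 1.99e-06), and no fold is given because L20 rests on 1 UMI. PAEP, a whey protein gene, stood at 5809 CPM in L0 sow 1 and at 198 and 0 CPM at L20 (4 and 0 UMIs, edgeR adjusted p = 4.11e-06). The CSN2 and PAEP calls were both lost with DESeq2 and in nuclei with at least 2 markers, and that of CSN2 also without L20 sow 2. Milk genes are made by luminal cells, and their summed level in mural nuclei moved with that in all nuclei of the gland. In L0 sow 1 it was 11116 CPM in mural and 16363 CPM in all nuclei, in L20 sow 2 it was 15.2 and 142 CPM, and in PI7 sow 1 it was 108 and 264 CPM. The mural level was below that of all nuclei in each of the 10 glands. The part of RNA from luminal cells in these calls was not tested.

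**Figure D5:**
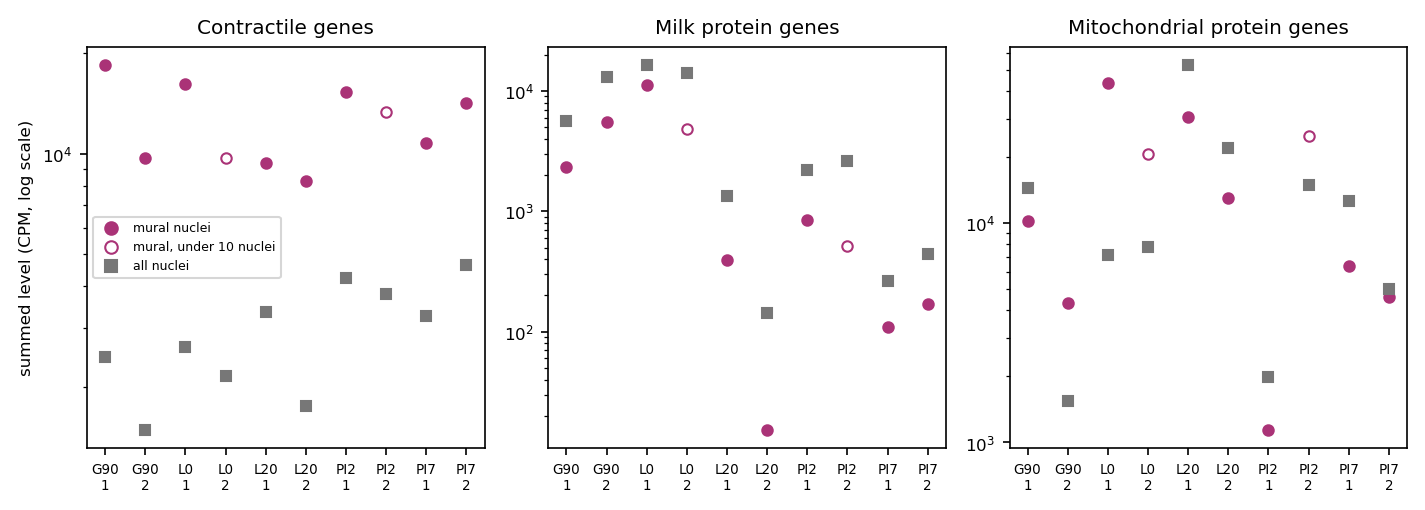
Summed CPM on log axes of contractile, milk protein and mitochondrial protein genes in each gland, in mural nuclei (circles, open for the 2 glands with under 10 mural nuclei) and in all nuclei (squares). Contractile sums are higher in mural than in all nuclei in every gland, milk protein sums are lower in every gland, and mitochondrial sums lie on either side.

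Of the 8 genes that the naming rule gave for lactation against the other stages, 6 belong to the mitochondrial genome. ND1, a subunit of complex I, stood at 1750 CPM in L0 sow 1 and 694 and 596 CPM at L20, against 203 and 40.8 CPM at G90, 37.8 CPM in PI2 sow 1 and 46.7 and 189 CPM at PI7. The groups did not overlap, and the log2 difference was 3.54 ± 0.62 (adjusted p = 2.43e-05). Per nucleus the order was less clear: the median mitochondrial share was 2.07% in L0 sow 1, 0.896% and 0.270% in the L20 sows, 0.525% and 0.304% at G90, 0% in PI2 sow 1, and 0.266% and 0.124% at PI7. In L20 sow 2 the highest nucleus reached 47.3%. COX3, COX2, ND2, COX1 and ATP6 were higher by 3.39 ± 0.69, 3.15 ± 0.65, 3.06 ± 0.61, 2.97 ± 0.69 and 2.74 ± 0.63. These 5 calls were lost without either PI7 sow and with at least 5 nuclei per gland, and COX1 and ATP6 also without G90 sow 2 and COX1 without G90 sow 1. In nuclei with at least 2 markers all 6, ND1 included, were lost. PI2 sow 2, left out with 8 nuclei, had 1136 CPM of ND1, within the lactation range. Mitochondrial genes summed to 43532 CPM in the mural nuclei of L0 sow 1 against 7129 CPM in all its nuclei, and to 30387 and 13054 CPM in those of the L20 sows against 52529 and 21930 CPM. Mitochondrial RNA in a nuclear preparation lies outside the nucleus, and its part in the calls was not tested.

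Other named calls follow, some of them beside the level over all nuclei of the gland. XDH, CD93, PIK3C2G and CHPT1 were lower at L20 than in L0 sow 1, by -5.77, -5.39, -5.08 and -4.64 (log2). At L20 these genes stood at 0 to 49.6 CPM. None of them was called in nuclei with at least 2 markers, and with DESeq2 they were not all called. ND4L, of the mitochondrial genome, was higher in L0 sow 1 than at G90, by 3.68, and was not called with DESeq2. Levels over all nuclei are not given for these genes. HPS5, a gene of lysosome-related organelles, had 3668 CPM in L0 sow 1 and 96.0 and 490 CPM at G90 (4.11 ± 0.98, adjusted p = 0.0315). The call was lost with DESeq2, as was that of CFAP161 in the same comparison, and without either G90 or either PI7 sow. Its level over all nuclei was 4172 CPM in L0 sow 1, and 137 and 571 CPM at G90. In L20 sow 1 it was 3916 CPM in mural and 9829 CPM in all nuclei, and in L20 sow 2 60.8 and 101 CPM. ITPRID1 was higher in lactation by 2.99 ± 0.68 (adjusted p = 0.00658), with 447 CPM in L0 sow 1, 397 and 64.6 CPM at L20 and 5.34 to 56.6 CPM in the 5 other glands, and the call was lost without G90 sow 1 or either PI7 sow. CFAP161 was seen with 22 UMIs (410 CPM) in L0 sow 1 and with 0 in both G90 glands, where 0 allows up to 122 CPM in sow 2, and it stood at 477 CPM in all nuclei of L0 sow 1.

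KCNQ5, a potassium channel gene, was the 1 member of the channel lists called between stages. It had 0 UMIs in L0 sow 1, which allows up to 55.9 CPM, and 2 and 234 UMIs in the L20 glands, or 99.1 and 889 CPM (adjusted p = 0.0431). The L20 sow with 889 CPM was sow 2, where fibroblast genes were also highest, and G90 sow 1 reached 411 CPM. Over all nuclei of L20 sow 2 it stood at 577 CPM. The call was lost with DESeq2, without L20 sow 2, without either PI7 sow, and in nuclei without PDGFRA, LUM or DCN. SCGN and AHR were called higher in the 1 PI2 gland than at L20, SCGN at 296 CPM against 0 and 3.80 CPM and AHR, the aryl hydrocarbon receptor, at 365 CPM against 0 and 11.4 CPM. Both stood higher still over all nuclei of PI2 sow 1, at 814 and 636 CPM. Both calls were lost with DESeq2, with these stages fitted alone, without L20 sow 2, without either PI7 sow, and with both PI2 glands included at 5 nuclei per gland. CLEC3B was higher in lactation by 3.76 ± 0.94 (adjusted p = 0.0277), with 99.1 to 171 CPM against 0 to 84.9 CPM, and the call was lost with DESeq2 and without L20 sow 2, G90 sow 2 or either PI7 sow. At PI7 against PI2, where none was called, RGS1 and PAEP had the lowest unadjusted edgeR p in each direction among genes with a symbol in the files (0.000103 and 0.00115).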

How the data were processed

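Nuclei of 10 mammary glands were analysed, and the members and gene lists were chosen with earlier results of these data known. The authors prepared libraries with a GEXSCOPE single-nucleus kit, processed the reads with CeleScope on Sscrofa11.1 and deposited raw UMI counts per gene and barcode, without normalization. Of 28711 gene identifiers, 15457 had a symbol in the files and 644 took one from the reference. Where no symbol was given, as for STAC, the gene did not enter the rule.

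Nuclei with at least 300 detected genes were kept, and no doublet caller was run. UMIs were summed per gland over mural nuclei (at least 10 per gland) and tested by the quasi-likelihood method of edgeR 4.0.16 in R 4.3.3, after filterByExpr and TMM scaling, in 1 fit over the 5 stages. A second fit compared classes with the gland as a block. P-values were adjusted by Benjamini-Hochberg over all genes tested, and calls needed an adjusted p under 0.05 and an absolute log2 fold change over 1. The SE of a fold change was taken as its absolute value divided by the square root of the edgeR F statistic. It therefore restates the test and is not a separate estimate of error. DESeq2 1.42.0 was an alternative. Fits were tested on simulated data. CPM are summed UMIs per 1000000 and fold changes are not corrected for gene length. Intervals of shares are exact binomial intervals at 95% and, like the limits that a count of 0 allows (3 counts), cover counting error only. Mural sums held 7861 to 471261 UMIs, and the smallest sums are the least precise.

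Named genes were, for each list, up to 4 members called with the largest change, or else of highest level, and for each comparison up to 8 called genes per direction with a file symbol and no overlap of glands. Others named beside them were chosen after their values were seen. Other settings of the rule, the normalization, the filter and the glands were tried. Milk samples and tissue sections were used only to count barcodes and spots that pass the rule. Some items are not reported here.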

Additional observations from a re-analysis of the deposited data

Results flagged for a closer look

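Both values below come from samples outside the comparisons and are listed because the share of barcodes that passed the rule lay above the limit that a count of 0 allows. That limit is no test, and neither value was compared with a control. In milk cells of L0, 9 of 17630 barcodes with at least 300 genes passed the rule, 0.0510% (95% interval 0.0233 to 0.0969%, exact binomial), against a limit of 0.0170%. In the same milk sample MYH11 stood at 2.01 CPM, PDGFRB at 0.235 CPM and RGS5 at 0.377 CPM, while ANO3 stood at 15.6 CPM. In milk of L20 1 of 14554 barcodes passed.

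In the tissue section of PI2, 5 of 2198 spots passed, 0.227% (95% interval 0.0739 to 0.530%), against a limit of 0.136%, which lies inside that interval, and in that of G90 0 of 4718 passed. A spot covers several cells, so that a mural cell beside an epithelial cell fails the rule: without the excluded genes, 20 spots of PI2 and 46 of G90 had at least 3 markers. RGS5 was present in 37.3% of the spots of both sections, at 73.2 CPM in PI2 and 58.0 CPM in G90.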

How the results depend on the processing

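The lower share of mural nuclei in lactation kept its sign under 6 other settings of the rule (-0.529 to -0.231 percentage points, exact permutation p = 0.181 to 0.495) and without each gland in turn (-0.525 to -0.260, exact permutation p = 0.127 to 0.393). The 48 named class results kept their sign and an adjusted p under 0.05 in all 496 recomputed values, without the fold limit applied again. They were named for large differences in the same data, so that this is no separate support. Of 430 values of the 25 named stage results, 244 kept an adjusted p under 0.05, 186 did not and 0 changed sign. In the main fit L0 and PI2 rest on 1 gland each, and the cause of the changes below was not tested.

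In the order L0 against G90, L20 against L0, PI2 against L20, PI7 against PI2 and lactation against the other stages, the calls numbered 12, 13, 6, 0 and 19. They became 0, 1, 7, 0 and 12 with DESeq2, and 20, 21, 17, 1 and 29 with DESeq2 size factors in edgeR. Without a filter on low counts they were 4, 9, 3, 0 and 13, and at an unadjusted p under 0.05 they were 421, 504, 474, 198 and 349. Fitted on the stages compared alone, the first 4 gave 19, 9, 0 and 22. Nuclei with at least 2 markers gave 1, 0, 0, 0 and 2, and those with at least 4 gave 27, 39, 50, 7 and 37. Nuclei without PDGFRA, LUM or DCN gave 6, 10, 7, 0 and 19. With at least 5 nuclei per gland, a setting chosen after seeing the data, all 10 glands entered and the counts were 5, 12, 0, 0 and 7. Leaving out 1 gland at a time gave 1 to 26, 4 to 39, 0 to 21, 0 to 4 and 3 to 24 calls. Comparisons with L0 could not be fitted without L0 sow 1, nor those with PI2 without PI2 sow 1.

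Deviations of same-numbered sows had correlations across genes of -0.114 (G90 with L20), 0.0026 (G90 with PI7) and -0.036 (L20 with PI7). L0 and PI2, with 1 gland each in the fit, could not enter. Counting error in small sums lowers such correlations, so they cannot decide whether the sow numbers pair the samples. With the replicate number as a block the 5 stage counts were 1, 6, 0, 0 and 8. Against fibroblast, myoepithelial and endothelial nuclei, 996, 1397 and 1341 of 8250 genes tested were called in the main fit. Without a filter on low counts the calls were 1731, 2658 and 2201 of 26584 genes. With nuclei thinned to 500 UMIs they were 469, 538 and 544 of 2533 genes. In mural nuclei without PDGFRA, LUM or DCN they were 1147, 1448 and 1384 of 8284 genes. The genes tested differ between settings, so the counts alone cannot be set side by side.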
